A study of Mus musculus with 24 samples.

Results

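Molecular chaperones and protein-folding enzymes were followed in the epithelial fraction of mouse lung organoids exposed to nylon fibers. The set was chosen by gene symbol and held the HSP70 and HSP110, HSP90, small heat shock and J-domain (Dnaja, Dnajb, Dnajc) protein families, the chaperonins of the cytosol (TRiC, made of Tcp1 and the Cct proteins) and of mitochondria (Hspd1 and Hspe1), the Pdia disulfide isomerases, Calr, Canx, Hyou1 and Hsf1. It held 80 of the 14557 gene symbols counted, 36 of them assigned to the cytosol, 22 to the endoplasmic reticulum (ER), 10 to mitochondria and 12 to other places. For each gene the listed transcript with the largest average over the 12 epithelial columns stood for the gene. Of the 80 members, 77 passed the filter on low counts, and Dnajb3, Dnajc6 and Pdia2 did not.

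The organoids were grown from primary EpCAM+ lung cells of female wild-type C57BL6 mice mixed with CCL206, an established mouse lung fibroblast line. Each well of a 6-well plate received 200000 cells of each kind in Matrigel and either no fibers, 12000 fibers or 30000 fibers of nylon 6,6, each 12 by 31 µm. After 7 days the cells were parted with anti-EpCAM beads, and total RNA of the bead-bound, epithelial fraction was sequenced. Each of the 3 groups held 4 libraries, from mouse 1 to mouse 4, each an independent isolation, so p-values measure the spread between cultures from separate mice, and every group carried the same single fibroblast line. The comparisons ask how expression differed with the number of fibers.

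Chaperones bind unfolded or partly folded proteins and help them to reach their final shape, mostly through cycles of ATP binding and hydrolysis. In the cytosol, HSP70 proteins take clients from J-domain partners, release them with the help of exchange factors, and can pass them to HSP90 or to the ring-shaped chaperonin TRiC, which folds actin and tubulin. The ER has its own HSP70 (Hspa5, BiP) and HSP90 (Hsp90b1, GRP94), a lectin cycle for glycoproteins (Calr, Canx, Pdia3) and disulfide isomerases, while mitochondria import proteins with Hspa9 and fold them in the Hspd1-Hspe1 chamber. Heat shock factor 1 (Hsf1) drives many cytosolic and some mitochondrial members through heat shock elements, and the unfolded protein response drives ER members through ER stress elements.

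The 12 libraries held between 2799765 and 10583357 counts on the representative transcripts, and those of 30000 fibers were the lowest, at 3723250 or fewer. Levels are given as CPM, counts scaled to a library size of 1000000 after trimmed-mean normalization. At 30000 fibers the share of counts on genes of the mitochondrial genome was 15.6% ± 0.885, while controls had 6.44% ± 1.118 and 12000 fibers 6.08% ± 0.725 (SD, n = 4). When genes were split into 5 classes of transcript length, the median change of the shortest class less that of the longest was 0.68 to 0.76 (log2, against the control mean) in the libraries of 30000 fibers, and between -0.06 and 0.12 in all the others. The summed level of 14 fibroblast markers, none of them at 0 in any library, ran from 8485 to 13085 CPM in controls, from 15130 to 16490 CPM at 12000 fibers and from 13715 to 16712 CPM at 30000 fibers. Most of that sum was Fn1. Without it, as added after seeing the data, the markers summed to 1473 ± 470.1 CPM in controls, 2616 ± 130.2 CPM at 12000 fibers and 3868 ± 373 CPM at 30000 fibers (SD, n = 4). Of the 13 fibroblast markers tested, 11 rose at 12000 fibers (median log2 fold change 1.07) and 13 at 30000 fibers (median 1.70), and 8 were higher at 30000 than at 12000 fibers (median 0.67). The 10 epithelial markers summed to between 6589 and 7636 CPM in controls and between 6748 and 7558 CPM at 12000 fibers. At 30000 fibers they summed to between 3713 and 4409 CPM. Markers of both cell types were thus counted in every library, and which cells made this RNA was not tested. Of the 10 epithelial markers, 6 fell and 2 rose (Krt8 and Cldn4) at 12000 fibers, with a median of -0.38. At 30000 fibers 9 fell, with a median of -0.76. The 10 ciliated-cell markers with a count summed to 126 ± 24.5 CPM in controls, 47.2 ± 4.48 CPM at 12000 fibers and 35.4 ± 7.34 CPM at 30000 fibers (SD, n = 4). In RNA from fractions with markers of several cell types, fewer cells of a type and less RNA per cell cannot be told apart.

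RefSeq (build GRCm38.p6) listed start-site windows, from 250 bases before to 50 bases after the start, for 64 of the 80 members. Both strands of these were searched for 3 elements. The heat shock element was GAA, TTC and GAA in a row, or TTC, GAA and TTC, with 2 bases of any kind between neighbors. The first ER stress element was CCAAT and CCACG parted by 9 bases, and the second was ATTGG and CCACG parted by 1 base. The heat shock element was found in 6 of 83 windows of members (7.23%) and in 0.603% of all 32851 windows. The 6 were windows of Dnajb6, Hspd1, Hspe1 and Hsph1, with overlapping windows of Dnajb6 and of Hsph1 counted apart. The windows of Hspd1 and Hspe1 also overlap and hold the same matched bases, read from opposite strands. The 7.23% therefore counts the same sites more than once. The windows of Hspa1a, Hspa1b, Dnajb1, Dnaja1 and Hspb1 held no match to this element. The first ER stress element was found in 6 of 20 windows of ER members (30%), those of Calr, Canx, Dnajc3, Hsp90b1, Hspa5 and Pdia6, and in 0.119% of all windows. The second was found in the window of Dnajb11 and in 0.0365% of all windows. These matches are descriptions of letters, not measured binding.

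The following 6 windows are printed because they show a heat shock element in a cytosolic and a mitochondrial member and an ER stress element in 4 ER members whose values are described here. The matched letters are in capitals, and each window reads 5′ to 3′ on the strand of its gene. The Hspe1 window (chr1:55087898-55088197, + strand) holds overlapping heat shock elements starting 89 and 84 bases before the start site and shares 285 bases with the window of Hspd1, which lies head to head with it on the - strand. The Hsph1 window (chr5:149636266-149636565, - strand) has its match 15 bases after the start. The ER stress elements begin 65 bases before the start in Hspa5 (chr2:34771840-34772139, + strand), 212 and 107 bases before it in Hsp90b1 (chr10:86705395-86705694, - strand), 98 bases before it in Pdia6 (chr12:17266339-17266638, + strand) and 162 bases before it in Calr (chr8:84846882-84847181, - strand).
Hspe1: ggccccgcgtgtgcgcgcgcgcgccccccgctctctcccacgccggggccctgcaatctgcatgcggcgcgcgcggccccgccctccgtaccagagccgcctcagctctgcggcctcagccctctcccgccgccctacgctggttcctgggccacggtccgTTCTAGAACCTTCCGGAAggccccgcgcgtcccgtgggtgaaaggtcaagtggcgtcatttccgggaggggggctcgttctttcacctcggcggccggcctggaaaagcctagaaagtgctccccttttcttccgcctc
Hsph1: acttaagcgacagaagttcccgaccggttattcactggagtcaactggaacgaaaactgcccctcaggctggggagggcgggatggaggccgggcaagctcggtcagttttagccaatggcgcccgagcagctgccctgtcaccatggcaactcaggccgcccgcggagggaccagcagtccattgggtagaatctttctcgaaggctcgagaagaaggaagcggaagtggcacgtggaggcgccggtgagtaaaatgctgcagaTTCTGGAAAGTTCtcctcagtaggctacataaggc
Hspa5: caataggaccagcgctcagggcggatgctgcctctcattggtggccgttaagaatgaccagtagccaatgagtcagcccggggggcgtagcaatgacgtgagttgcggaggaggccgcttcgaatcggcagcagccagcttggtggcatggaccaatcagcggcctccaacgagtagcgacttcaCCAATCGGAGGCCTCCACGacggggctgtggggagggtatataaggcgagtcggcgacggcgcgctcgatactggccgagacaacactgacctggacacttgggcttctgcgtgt
Hsp90b1: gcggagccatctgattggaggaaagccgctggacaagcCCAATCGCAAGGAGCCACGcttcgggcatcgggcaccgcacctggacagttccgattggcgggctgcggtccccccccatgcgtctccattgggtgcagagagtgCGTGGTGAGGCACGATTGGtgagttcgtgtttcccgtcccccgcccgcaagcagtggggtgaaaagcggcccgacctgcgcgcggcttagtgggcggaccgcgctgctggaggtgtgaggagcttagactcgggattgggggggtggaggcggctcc
Pdia6: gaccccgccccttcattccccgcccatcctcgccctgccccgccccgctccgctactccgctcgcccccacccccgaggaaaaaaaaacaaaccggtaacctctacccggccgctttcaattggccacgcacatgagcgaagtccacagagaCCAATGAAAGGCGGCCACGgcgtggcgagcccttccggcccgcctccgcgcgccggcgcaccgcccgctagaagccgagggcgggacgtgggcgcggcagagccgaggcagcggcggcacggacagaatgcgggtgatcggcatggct
Calr: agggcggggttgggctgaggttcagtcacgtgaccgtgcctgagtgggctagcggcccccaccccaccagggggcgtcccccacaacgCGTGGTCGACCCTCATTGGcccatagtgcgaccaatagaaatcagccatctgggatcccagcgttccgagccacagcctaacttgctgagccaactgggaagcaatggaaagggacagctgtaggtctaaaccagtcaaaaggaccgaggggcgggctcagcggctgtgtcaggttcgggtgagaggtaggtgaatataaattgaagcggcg

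In control organoids the ER and cytosolic members were about equally abundant, and mitochondrial members were far lower. Summed over its members, the cytosolic class stood at 5744 ± 222 CPM, the ER class at 5846 ± 113 CPM and the mitochondrial class at 764 ± 39.96 CPM (SD, n = 4). Per kilobase of transcript, the highest control level was that of Hsp90ab1, the constitutive HSP90, at 805 CPM per kb. The next were ER proteins, with Calr at 482, Hsp90b1 at 398, Pdia3 at 263 and Hspa5 at 229 CPM per kb. The inducible HSP70 genes were low, at 6.55 CPM per kb for Hspa1a and 13.3 CPM per kb for Hspa1b.

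At 12000 fibers, more cytosolic members rose than fell, TRiC subunits and Hsp90aa1 among the rises, while the inducible HSP70s were much lower, and few ER members passed the test. Of the 77 members tested, 20 rose and 10 fell, against 38% of all 13759 genes called in this comparison (18.7% higher and 19.3% lower). The members' median log2 fold change was 0.10, beside -0.00 for all genes. By class, 14 cytosolic members rose and 5 fell of 35 (median 0.18), 1 ER member rose and 4 fell of 21 (median -0.03), 3 of 10 mitochondrial members rose (median 0.07), and 2 of the 11 others rose and 1 fell. All adjusted p-values come from edgeR's quasi-likelihood test with Benjamini-Hochberg adjustment over all genes tested. When the mean level of the fibroblast markers entered the fit as a covariate, edgeR called 4 members lower (Dnajb1, Hspa1a, Hspa1b and Hspa2) and 0 higher, with 4 higher and 7 lower at an unadjusted p under 0.05. The share of all genes called was then 6.99%. The marker ranges of controls and 12000 fibers did not overlap, so the fiber number and the fibroblast level cannot be told apart in these libraries.

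**Figure D1:**
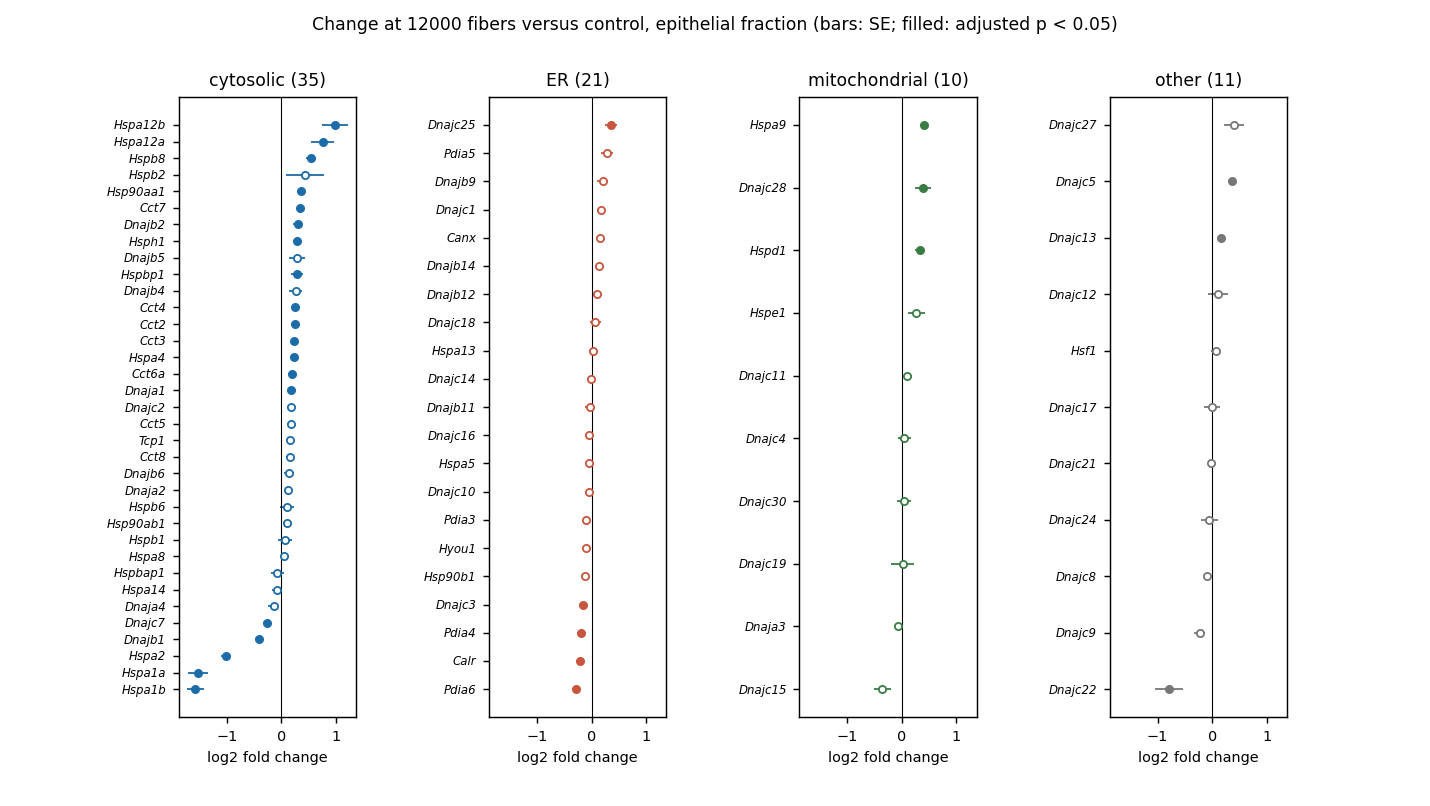
Log2 fold change at 12000 fibers against control for the 77 members tested, by compartment, with bars for the standard error and filled points for an adjusted p under 0.05. The inducible HSP70s Hspa1a and Hspa1b lie at the far left of the cytosolic panel, at -1.53 and -1.57, while 14 cytosolic members are filled points to the right of 0.

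The stress-inducible HSP70s had the largest falls of the 77 members at 12000 fibers. Hspa1b (chr17:34956436-34959238, - strand, GRCm38, a gene of 1 exon) read 48.6, 31.2, 36.6 and 32.3 CPM in the controls of mouse 1 to 4 and 11.2, 9.33, 16.04 and 13.5 CPM at 12000 fibers. Every library at 12000 fibers was below every control, and the gene fell by 1.57 ± 0.16 on the log2 scale (SE, adjusted p = 1.02e-06). Its neighbor Hspa1a (chr17:34969190-34972156, - strand, also 1 exon) read 27.4, 15.6, 17.6 and 17.2 CPM in controls and 7.08, 4.93, 8.37 and 6.43 CPM at 12000 fibers. The control of mouse 1 was the highest, the groups did not overlap, and Hspa1a fell by 1.53 ± 0.18 (adjusted p = 2.52e-06). This pair is nearly identical in sequence, so how reads were divided between them is uncertain. Their summed level was 56.6 ± 13.3 CPM in controls and 19.2 ± 4.200 CPM at 12000 fibers. The summed ciliated-cell markers were lower in the same libraries, at 47.2 against 126 CPM, and their part in these falls was not tested.

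Dnajb1, the J-domain partner of inducible HSP70, moved the same way by less. It read 57.6, 55.6, 56.9 and 62.7 CPM in controls and 45.3, 43.6, 43.2 and 42.9 CPM at 12000 fibers, with no overlap, and fell by 0.41 ± 0.07 (adjusted p = 0.000115). Hspa2, an HSP70 best known from the testis, read 34.96, 32.5, 32.3 and 37.2 CPM in controls and 15.8, 16.8, 18.8 and 16.7 CPM at 12000 fibers. All 4 treated libraries were far below all controls, and it fell by 1.01 ± 0.09 (adjusted p = 1.13e-07). Dnajc7, a J protein that binds HSP70 and HSP90, fell by 0.26 ± 0.07 (adjusted p = 0.00375). Dnajc22, a membrane J protein of low level (3.37 ± 0.788 CPM in controls), fell by 0.79 ± 0.26 (adjusted p = 0.0205). The call on Dnajc22 was lost without the control of mouse 2 or without the library of mouse 1 or 3 at 12000 fibers (adjusted p 0.0576 to 0.0885).

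The HSP90 and HSP110 genes and the constitutive HSP70 took another course. Hsp90aa1, the stress-responsive HSP90, read 183, 223, 206 and 211 CPM in controls and 248, 274, 273 and 261 CPM at 12000 fibers. Each treated library was above each control, and Hsp90aa1 rose by 0.36 ± 0.07 (adjusted p = 0.000366). Its constitutive relative Hsp90ab1 read 2029 ± 88.6 CPM in controls and 2173 ± 89.2 CPM at 12000 fibers and did not pass the test (log2 fold change 0.10 ± 0.07, adjusted p = 0.274). Among cytosolic members, the HSP110 proteins Hsph1 and Hspa4 rose by 0.30 ± 0.06 (adjusted p = 0.00108) and 0.23 ± 0.06 (adjusted p = 0.00536), and Hspbp1, an HSP70 exchange factor, by 0.29 ± 0.11 (adjusted p = 0.0392). The call on Hspbp1 was lost without the control of mouse 1, 3 or 4 or the library of mouse 1, 2 or 3 at 12000 fibers (adjusted p 0.0589 to 0.124). Hspa8, the constitutive HSP70, stood at 412 ± 38.8 CPM in controls and 429 ± 21.1 CPM at 12000 fibers (log2 fold change 0.06 ± 0.07, adjusted p = 0.558). Hspa12a and Hspa12b, distant HSP70 relatives, were rare, with control means of 3.17 ± 0.978 and 2.69 ± 1.08 CPM. They rose by 0.76 ± 0.21 (adjusted p = 0.00648) and 0.99 ± 0.24 (adjusted p = 0.00272).

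Of the 9 genes with a count on a list of Hsf1-inducible members, 4 rose (Hsp90aa1, Hspd1, Hsph1 and Dnaja1), 3 fell (Hspa1a, Hspa1b and Dnajb1), and Hspb1 and Hspe1 did not pass the test at 12000 fibers. The list therefore did not move one way. Its share called was 77.8%, beside 38% of all genes. Dnaja1, a J partner of HSP70, read 74.7, 79.8, 77.1 and 84.7 CPM in controls and 85.2, 91.4, 92.2 and 90.8 CPM at 12000 fibers and rose by 0.18 ± 0.06 (adjusted p = 0.0259). That call was lost without the control of mouse 1 or 3 or the library of mouse 2, 3 or 4 at 12000 fibers (adjusted p 0.053 to 0.0816). Hsf1 itself stood at 41.6 ± 1.51 CPM in controls and 43.3 ± 5.15 CPM at 12000 fibers (log2 fold change 0.06 ± 0.09, adjusted p = 0.621). Dnajb4 read 0.26 ± 0.12 (adjusted p = 0.105). With a term for the mouse it passed (0.28, adjusted p = 0.0105) and without the control of mouse 4 (adjusted p = 0.0172).

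All 8 subunits of TRiC had positive fold changes at 12000 fibers, with a median of 0.21, and 5 of them rose. The share called was 62.5%, beside 38% of all genes. Cct7 had the highest value of the 8, with 168, 193, 196 and 179 CPM in controls and 240.4, 230.5, 242 and 219.9 CPM at 12000 fibers. The groups did not overlap, and it rose by 0.34 ± 0.06 (adjusted p = 0.000316). Cct4 rose by 0.25 ± 0.06 (adjusted p = 0.00274), Cct2 by 0.25 ± 0.06 (adjusted p = 0.00444), Cct3 by 0.24 ± 0.07 (adjusted p = 0.00924) and Cct6a by 0.19 ± 0.07 (adjusted p = 0.0348). The other 3 were Cct5 at 0.17 ± 0.07 (adjusted p = 0.0617), Tcp1 at 0.16 ± 0.07 (adjusted p = 0.0662) and Cct8 at 0.15 ± 0.06 (adjusted p = 0.0612). Summed, the ring stood at 1676 ± 106 CPM in controls and 1950 ± 55.9 CPM at 12000 fibers. Calls near the threshold moved with single libraries and with the mouse as a block. Cct6a was lost without the control of mouse 1 or 4 or the library of mouse 1, 2 or 3 at 12000 fibers (adjusted p 0.0624 to 0.132). Cct5 passed without the control of mouse 2 or the library of mouse 2 at 12000 fibers (adjusted p 0.0243 to 0.0384), and Tcp1 and Cct8 passed without the control of mouse 2 (adjusted p = 0.0291 and 0.0491). With the block, Cct5 (0.17, adjusted p = 0.0485) and Tcp1 (0.16, adjusted p = 0.0456) passed too.

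Among the small heat shock proteins, which hold unfolded proteins in solution without using ATP, Hspb8 rose at 12000 fibers. It read 36.6, 49.03, 55.4 and 49.6 CPM in controls and 66.3, 77.8, 67.4 and 66.2 CPM at 12000 fibers, without overlap, a rise of 0.54 ± 0.10 (adjusted p = 0.000205). Hspb1, the widely expressed HSP27-type member, read 25.9, 17.03, 21.1 and 20.9 CPM in controls and 21.3, 23.8, 23.4 and 20.2 CPM at 12000 fibers, and the groups overlapped (log2 fold change 0.07 ± 0.13, adjusted p = 0.731). Hspb6 and Hspb2 did not pass the test either, at 0.10 ± 0.13 (adjusted p = 0.571) and 0.43 ± 0.34 (adjusted p = 0.346).

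ER members showed little change at 12000 fibers, and most of those called were lower. Pdia6, a disulfide isomerase, read 301, 295, 289 and 268 CPM in controls and 246, 250.2, 232 and 223 CPM at 12000 fibers. No treated library reached a control, and it fell by 0.28 ± 0.07 (adjusted p = 0.00286). Calr, the lectin chaperone of the ER lumen, read 1135, 1055, 1023 and 994 CPM in controls and 924, 898, 942 and 853 CPM at 12000 fibers, again without overlap, and fell by 0.22 ± 0.08 (adjusted p = 0.0295). The isomerase Pdia4 fell by 0.20 ± 0.07 (adjusted p = 0.0388), and Dnajc3, a J-domain co-chaperone of Hspa5, by 0.16 ± 0.06 (adjusted p = 0.0484). Dnajc25, an ER membrane J protein, was the single ER member that rose, by 0.36 ± 0.12 (adjusted p = 0.0194) from 10.98 ± 0.896 CPM, a call lost without the control of mouse 1 or the library of mouse 1 or 3 at 12000 fibers (adjusted p 0.0507 to 0.0663). The call on Calr was lost without the control of mouse 1 or 2 or the library of mouse 1, 2 or 4 at 12000 fibers (adjusted p 0.05 to 0.0913). That on Pdia4 was lost without the control of mouse 2 or 3 or the library of mouse 2, 3 or 4 (adjusted p 0.0682 to 0.121). That on Dnajc3 was lost with the block (adjusted p = 0.0534) and without any 1 of the 8 libraries other than the control of mouse 1 (adjusted p 0.0597 to 0.145).

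Hspa5, the central ER HSP70, read 828, 891, 808 and 837 CPM in controls and 823, 833, 821 and 775 CPM at 12000 fibers. The groups overlapped (log2 fold change -0.05 ± 0.06, adjusted p = 0.576). Hsp90b1, Hyou1 and Pdia3 did not pass the test either, at -0.12 ± 0.07 (adjusted p = 0.17), -0.11 ± 0.07 (adjusted p = 0.209) and -0.10 ± 0.06 (adjusted p = 0.17). Canx, the membrane-bound partner of Calr, had a positive value, 0.16 ± 0.07 (adjusted p = 0.0762), while the other 4 were negative. Of 11 ER members listed as inducible by the unfolded protein response, 4 fell and the other 7 did not pass the test, with a median of -0.11. The share of that list called was 36.4%, beside 38% of all genes. Dnajb9, a J protein of that list, read 0.20 ± 0.10 (adjusted p = 0.11) and passed when the mouse was a block in the model (0.20, adjusted p = 0.0412). Pdia5 read 0.29 ± 0.11 (adjusted p = 0.0569) and passed without the control of mouse 2 or the library of mouse 2 at 12000 fibers (adjusted p 0.0162 to 0.0489).

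In mitochondria, Hspa9 and Hspd1 rose at 12000 fibers. Hspa9, the mitochondrial HSP70, read 399, 445, 467 and 424 CPM in controls and 558, 539.6, 617 and 577 CPM at 12000 fibers. The groups were well apart, and it rose by 0.40 ± 0.07 (adjusted p = 9e-05). Hspd1 (HSP60) read 151, 185, 171 and 153 CPM in controls and 209, 196, 222 and 200.3 CPM at 12000 fibers and rose by 0.32 ± 0.08 (adjusted p = 0.00262). Hspe1 (HSP10), the lid of the same chamber, read 26.7, 19.3, 18.6 and 14.4 CPM in controls and 24.4, 19.7, 25.2 and 24.8 CPM at 12000 fibers. These groups overlapped through the high control of mouse 1 (log2 fold change 0.26 ± 0.16, adjusted p = 0.212), without which the value was 0.44 (adjusted p = 0.0063). Dnajc28 rose by 0.38 ± 0.15 (adjusted p = 0.0488), a call lost without the control of mouse 1, 2 or 3 or the library of mouse 1, 3 or 4 at 12000 fibers (adjusted p 0.0687 to 0.136). Dnajc15, a J protein of the inner membrane, read -0.36 ± 0.15 (adjusted p = 0.0734) and passed as lower without the control of mouse 3 or 4 (adjusted p 0.0187 to 0.0236).

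At 30000 fibers the members split more widely, with Hspa8, Hspb1, Hspe1 and Dnaja1 strongly up, the inducible HSP70s higher than at 12000 fibers, and most of the abundant ER chaperones down. Of the 77 tested, 34 rose and 19 fell, in a comparison in which 65.6% of all genes were called (32.2% higher and 33.4% lower). The members' median was 0.11, beside -0.03 for all genes. Cytosolic members counted 16 rises and 6 falls of 35 (median 0.12), ER members 6 rises and 10 falls of 21 (median -0.05), mitochondrial members 6 rises and 2 falls of 10 (median 0.59), and the others 6 rises and 1 fall of 11 (median 0.23). The 3 comparisons share libraries, so their values are given side by side. With the fibroblast covariate, 11 members were called higher and 7 lower at 30000 fibers, and 25.9% of all genes were called. The marker ranges of controls and 30000 fibers did not overlap either, so this fit cannot tell fiber number from fibroblast level.

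Transcript length moved with these values. Over all genes, the median log2 fold change at 30000 fibers was 0.89 in the shortest of 10 equal classes of transcript length and -0.23 in the longest. Of the 8 members under 1500 nt (Dnajc17, Dnajc19, Dnajc24, Dnajc4, Dnajc8, Hspb1, Hspb2 and Hspe1), 6 rose at 30000 fibers, with a median of 0.92. At 12000 fibers the median of the same 8 was 0.03. Across the 77 members, fold change at 30000 fibers and length had a Pearson r of -0.35 and a Spearman rho of -0.22, and across 13677 genes these were -0.25 and -0.26. The values are across genes of the same libraries and carry no test. Less the median of genes of like length, the class medians at 30000 fibers became 0.16 for cytosolic, 0.07 for ER and 0.38 for mitochondrial members, so the ER value changed sign.

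**Figure D2:**
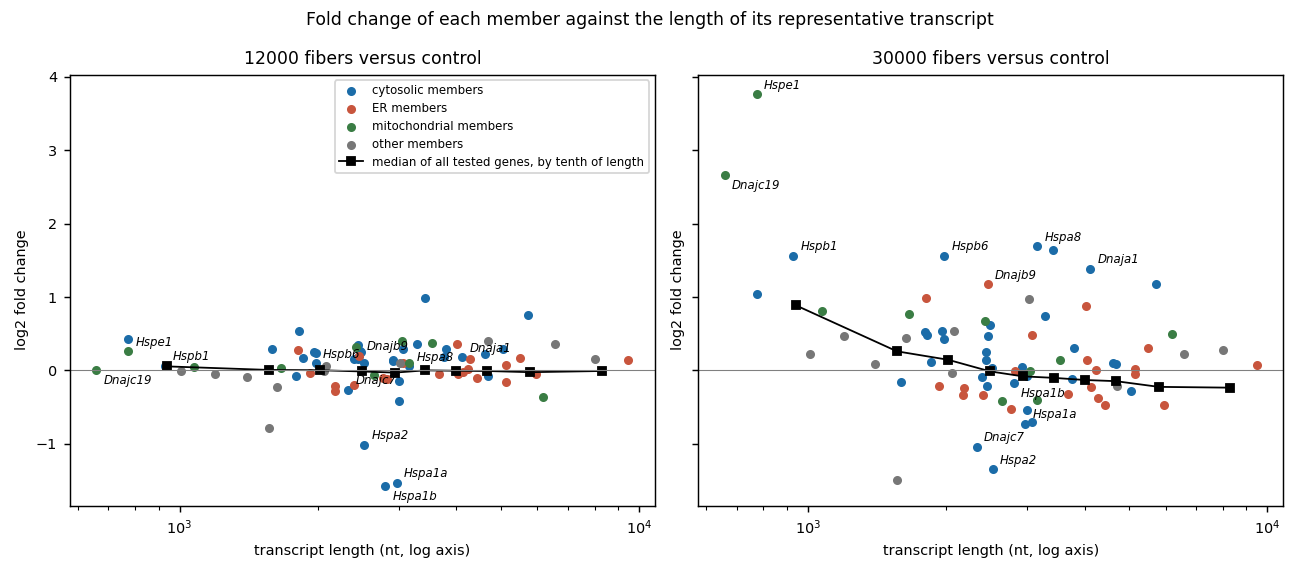
Log2 fold change of each member against the length of its representative transcript (log axis) at both fiber numbers, colored by compartment, with black squares for the median of all genes in each of 10 classes of length. At 12000 fibers the black line stays near 0, and at 30000 fibers it drops from 0.89 to -0.23, with Hspe1, Dnajc19 and Hspb1 above it at the short end.

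Hspa8 and Dnaja1, with representative transcripts of 3158 and 4119 nt, rose far above controls. Hspa8 read 432, 448, 410.4 and 359 CPM in controls and 1273, 1360, 1363 and 1328 CPM at 30000 fibers. All 4 treated libraries stood far above the controls and close to each other, and it rose by 1.69 ± 0.07 (adjusted p = 9.03e-14). Dnaja1 read 224, 199.7, 198 and 206 CPM at 30000 fibers, with no overlap with the control values above, and rose by 1.38 ± 0.06 (adjusted p = 2.95e-13). The representative of Dnaja1 is of the annotated type processed transcript. Of the 9 transcripts listed for Dnaja1, 3 were higher than every control at 30000 fibers and 1 was lower. Their log2 ratios of mean CPM ran from -1.09 to 1.74. Hsp90aa1 read 323, 334, 371 and 351 CPM and rose by 0.74 ± 0.07 (adjusted p = 1.62e-08), above its level at 12000 fibers in every library. Hsph1 rose by 0.31 ± 0.07 (adjusted p = 0.000554). Hspa4 and Hspbp1, which had risen at 12000 fibers, read 0.11 ± 0.06 (adjusted p = 0.134) and -0.15 ± 0.13 (adjusted p = 0.309). Hsf1 read 43.8, 41.4, 40.5 and 40.6 CPM in controls and 52.5, 65.6, 60.1 and 63.5 CPM at 30000 fibers and rose by 0.54 ± 0.09 (adjusted p = 3.86e-05).

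At 30000 fibers, transcripts listed for the same gene differed in direction. Of the 9 transcripts listed for Hspa8, 4 were higher in every library of 30000 fibers than in every control and 4 were lower. The log2 ratios of their mean CPM ran from 2.104 to -2.78, and at 12000 fibers they lay between -0.05 and 0.10. The representative of Hspa8, of the annotated type retained intron, had a ratio of 1.69, and the protein-coding transcripts that end at the last 3′ end of the gene had ratios of 1.93 and 2.104. Hsp90aa1 had ratios of 0.74 and 0.75 for its 2 longest transcripts, 0.34 for 1 short transcript of 325 nt, and between -0.95 and -2.02 for the 5 others. Hsp90ab1 had 0.03 for its full-length transcript and -0.39 to -1.09 for the 7 others. Over all members, 119 transcripts that end within 200 nt of the last listed 3′ end of their gene had a median ratio of 0.04 at 30000 fibers. The 246 that end more than 1000 nt before it had a median of -0.71, with 150 of them lower than every control and 21 higher. At 12000 fibers the same medians were 0.06 and 0.14. By representative transcript, 29.4% of all genes were lower than every control at 30000 fibers and 28.7% higher. Transcripts of genes outside the set were not sorted by end position. Whether the same holds for all genes was thus not tested. Transcripts of a gene share exons and reads, so these counts are not independent.

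**Figure D3:**
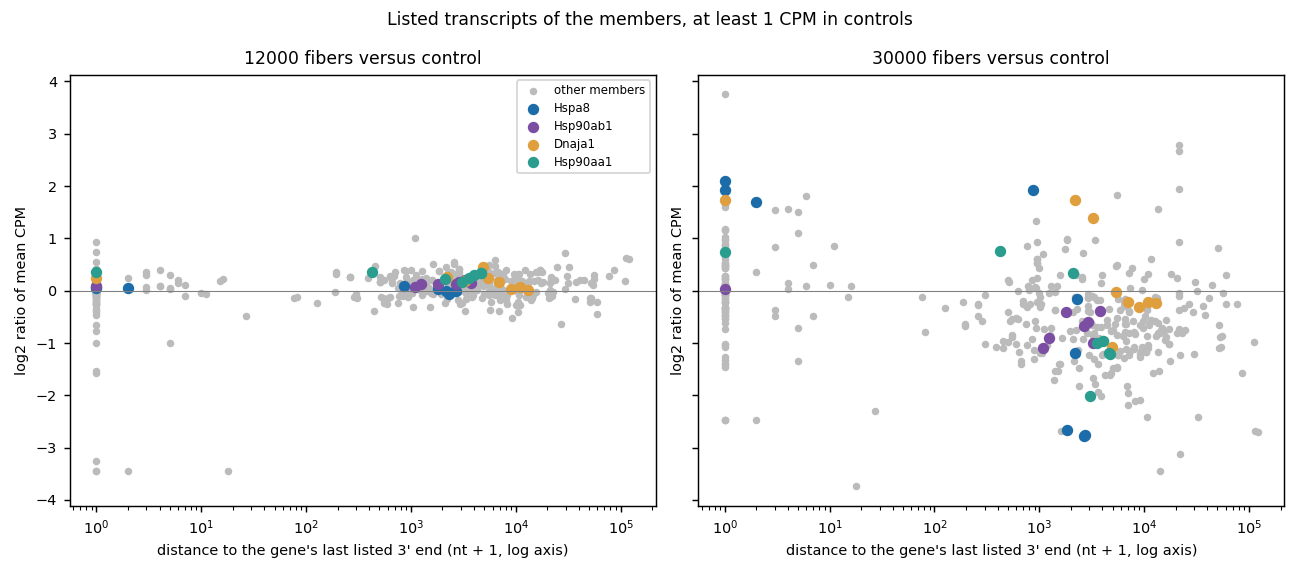
Log2 ratio of mean CPM for each listed transcript of the members with at least 1 CPM in controls, against the distance of its 3′ end from the last listed 3′ end of its gene (log axis), at both fiber numbers. Colored points mark Hspa8, Hsp90ab1, Dnaja1 and Hsp90aa1, and at 30000 fibers the points beyond 1000 nt lie mostly under 0, with a median of -0.71.

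Hspa1a and Hspa1b were higher at 30000 than at 12000 fibers. Hspa1b read 33.7, 29.6, 36.2 and 32.4 CPM at 30000 fibers, which overlapped the controls (log2 fold change -0.17 ± 0.16, adjusted p = 0.372). Against 12000 fibers it was higher in every library, by 1.41 ± 0.18 (adjusted p = 4.15e-06). Hspa1a read 12.1, 9.88, 12.7 and 12.03 CPM, between the other groups and without overlap with either, which was a fall of 0.73 ± 0.20 against control (SE, adjusted p = 0.00337) and a rise of 0.80 ± 0.22 against 12000 fibers (adjusted p = 0.00528). With the fibroblast covariate the value of Hspa1a against control was 0.15 (adjusted p = 0.794). Dnajb1 read 53.3, 61.03, 56.5 and 50.4 CPM, overlapped the controls (-0.07 ± 0.08, adjusted p = 0.406) and was above 12000 fibers by 0.34 ± 0.08 (adjusted p = 0.00104). Hspa2 read 12.9, 13.4, 15.01 and 12.4 CPM and fell by 1.35 ± 0.11 against control (adjusted p = 2.72e-09). Of the 9 Hsf1-inducible genes, 6 rose and 1 fell at 30000 fibers against control, and 8 rose against 12000 fibers. The shares called, 77.8% and 88.9%, stand beside 65.6% and 55.4% of all genes. Among the rises, Hspe1 and Hspb1 have short transcripts, of 774 and 930 nt.

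**Figure D4:**
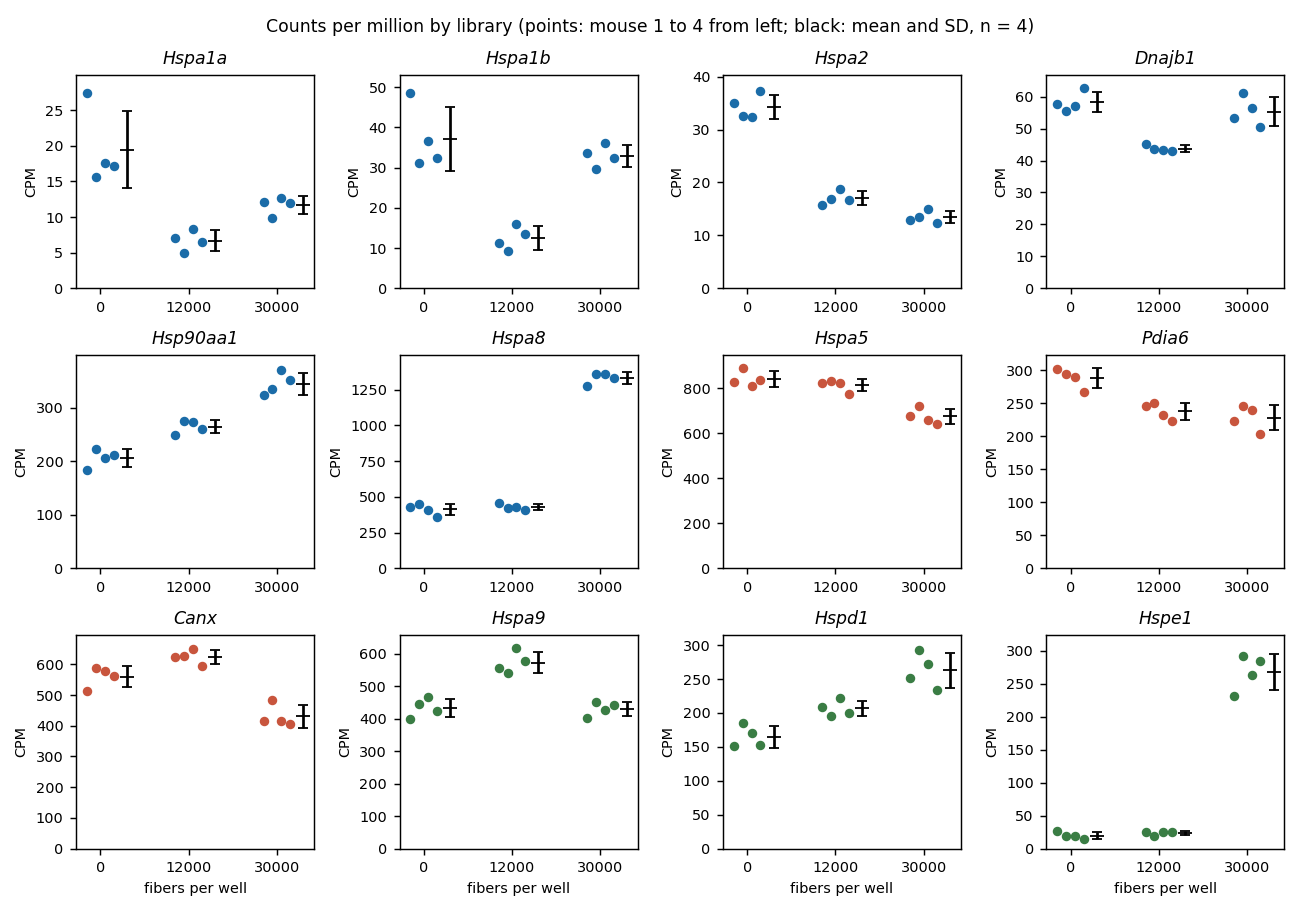
CPM of 12 members in each library by number of fibers per well, with points for mouse 1 to 4 from left and black bars for the mean and SD (n = 4). Hspa1b at 12000 fibers sits between 9.33 and 16.04 CPM and overlaps the controls at 30000 fibers, Hspa9 is highest at 12000 fibers, and Hspe1 and Hspa8 are high at 30000 fibers alone of the 3 groups.

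J proteins and small heat shock proteins of the cytosol also parted. Dnajc7 read 185, 161, 152 and 163 CPM in controls and 77.96, 80.1, 85.4 and 78.2 CPM at 30000 fibers, with each treated library far below each control, and fell by 1.04 ± 0.07 (adjusted p = 2.5e-10). All 22 listed transcripts of Dnajc7 were lower at 30000 fibers than in controls. Dnajb2, a J protein with ubiquitin-binding motifs, had risen by 0.30 ± 0.08 at 12000 fibers (adjusted p = 0.00698) and fell by 0.71 ± 0.10 at 30000 fibers (adjusted p = 4.31e-06). All 4 small heat shock proteins tested rose at 30000 fibers, a share of 100% beside 65.6% of all genes called. Hspb1 and Hspb2, of 930 and 773 nt, are in the shortest length class, where the median of all genes was 0.89. Hspb1 read 47.4, 65.97, 74.5 and 60.8 CPM, far above the controls, a rise of 1.56 ± 0.13 (adjusted p = 6.37e-09). Hspb6 rose by 1.57 ± 0.13 (adjusted p = 2.52e-09), Hspb2 by 1.04 ± 0.40 (adjusted p = 0.0286) and Hspb8 by 0.48 ± 0.11 (adjusted p = 0.000596). The call on Hspb2 was lost without the control of mouse 2 or 3 or the library of mouse 1, 3 or 4 at 30000 fibers (adjusted p 0.0576 to 0.0977). Hspb2 was rare and its groups overlapped, at 1.14 ± 0.428 CPM in controls and 2.38 ± 0.698 CPM at 30000 fibers (SD, n = 4). Hspb8 reversed to -0.13 (adjusted p = 0.710) with the fibroblast covariate, and Dnajb4, which rose by 0.46 ± 0.13 (adjusted p = 0.00587), reversed to -0.22 (adjusted p = 0.569). Hspa12b rose by 1.64 ± 0.26 (adjusted p = 1.7e-05).

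Of the 8 subunits of TRiC, 4 rose and 1 fell at 30000 fibers by their representative transcripts. The share called, 62.5%, stands beside 65.6% of all genes. Cct4 read 153, 168, 179 and 169 CPM in controls and 243, 267, 255 and 259 CPM at 30000 fibers and rose by 0.61 ± 0.06 (adjusted p = 4.21e-08). Cct2 rose by 0.53 ± 0.06 (adjusted p = 5.18e-07), Cct3 by 0.43 ± 0.07 (adjusted p = 2.29e-05) and Tcp1 by 0.26 ± 0.07 (adjusted p = 0.00285). For each of these 4 genes, more listed transcripts were lower than every control at 30000 fibers than were higher. Lower and higher counts were 4 and 2 for Cct2 and 4 and 3 for Cct3. For Cct4 they were 6 and 1, and for Tcp1 9 and 0. Cct6a fell by 0.21 ± 0.07 (adjusted p = 0.0165), a call lost without the control of mouse 2 or the library of mouse 3 at 30000 fibers (adjusted p 0.0539 to 0.073). Cct5, Cct7 and Cct8 read 0.12 ± 0.07 (adjusted p = 0.168), 0.14 ± 0.07 (adjusted p = 0.0649) and -0.08 ± 0.06 (adjusted p = 0.257). Cct7 passed as higher without the control of mouse 3 (adjusted p = 0.0423) and as lower when all transcripts of a gene were summed (-0.22, adjusted p = 0.0129). Hsp90ab1 read 2069 ± 127 CPM at 30000 fibers (0.03 ± 0.07, adjusted p = 0.733), and -0.21 (adjusted p = 0.00772) with summed transcripts.

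Most of the abundant ER chaperones were lower at 30000 fibers. Hspa5 read 678, 719, 658 and 641 CPM, each library below each control, and fell by 0.32 ± 0.06 (adjusted p = 0.000142). Pdia3, which oxidizes glycoproteins held by Calr and Canx, read 723, 762, 712 and 718 CPM in controls and 507, 541, 489 and 492 CPM at 30000 fibers and fell by 0.52 ± 0.06 (adjusted p = 2.11e-07). Hyou1, an exchange factor of Hspa5, fell by 0.47 ± 0.07 (adjusted p = 5.82e-06), and Canx by 0.38 ± 0.07 (adjusted p = 7.63e-05). Canx read 512, 589, 578 and 561 CPM in controls, 624, 627, 650.4 and 595 CPM at 12000 fibers and 416, 484, 415 and 406 CPM at 30000 fibers, so that the last group was below both of the others. Pdia6, Pdia4 and Calr stayed low, with falls of 0.34 ± 0.07 (adjusted p = 0.000263), 0.33 ± 0.08 (adjusted p = 0.000772) and 0.24 ± 0.08 (adjusted p = 0.00957). Hsp90b1 read 1095, 1131, 1145 and 1125 CPM in controls and 1092, 1264, 1090 and 1015 CPM at 30000 fibers, with overlap (-0.01 ± 0.07, adjusted p = 0.888). Dnajb11, a J partner of Hspa5, fell by 0.21 ± 0.09 (adjusted p = 0.0375), a call lost without the control of mouse 2 or the library of mouse 3 or 4 at 30000 fibers (adjusted p 0.127 to 0.163).

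Other ER members went up in the same libraries. Dnajb9 read 42.02, 36.8, 46.3 and 48.9 CPM in controls and 109, 78.3, 98.03 and 107 CPM at 30000 fibers. Every treated library was above every control, and it rose by 1.17 ± 0.10 (adjusted p = 4.52e-09). Pdia5 read 12.3 ± 1.78 CPM in controls and 24.4 ± 1.31 CPM at 30000 fibers, with no overlap, and rose by 0.99 ± 0.12 (adjusted p = 9.21e-07). Dnajc10, a J protein that reduces disulfides, rose by 0.14 ± 0.06 (adjusted p = 0.0309), a call lost without the control of mouse 1, 3 or 4 or the library of mouse 2 at 30000 fibers (adjusted p 0.05 to 0.0812). Dnajc3 read 0.02 ± 0.07 (adjusted p = 0.802). Of the 11 members inducible by the unfolded protein response, 7 fell, 1 rose (Dnajb9) and 3 did not pass the test. The share called was 72.7%, beside 65.6% of all genes. The genes with an ER stress element in their printed windows were not of one kind, since Hspa5, Pdia6 and Calr fell and Hsp90b1 did not pass the test.

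Among mitochondrial members, the parts of the Hspd1-Hspe1 chamber rose by unequal amounts at 30000 fibers. Hspe1 read 232, 292, 263 and 284 CPM against 14.4 to 26.7 CPM in controls, and rose by 3.77 ± 0.14 (adjusted p = 2.56e-11). Its representative is 774 nt long, and the other listed transcript of the gene, with a retained intron, had a log2 ratio of -1.71. Dnajc19, a J protein of the import motor with a transcript of 659 nt, read 3.704, 4.86, 2.87 and 2.83 CPM in controls and 22.3, 26.1, 22.4 and 21.05 CPM at 30000 fibers and rose by 2.67 ± 0.19 (adjusted p = 3.02e-10). Hspd1, whose window overlaps that of Hspe1, read 252, 293, 273 and 234 CPM and rose by 0.67 ± 0.08 (adjusted p = 4.08e-07), much less than Hspe1. Hspa9 was back at 402, 453, 427 and 442 CPM (-0.01 ± 0.07 against control, adjusted p = 0.914), a fall of 0.41 ± 0.07 from 12000 fibers (adjusted p = 3.55e-05). Dnaja3, a J partner of Hspa9, fell by 0.42 ± 0.10 (adjusted p = 0.00152), and Dnajc15 rose by 0.50 ± 0.16 (adjusted p = 0.0115).

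Between the 2 fiber numbers, 30 members were higher and 20 lower at 30000 fibers, where 55.4% of all genes were called (28.3% higher and 27.1% lower). The median was 0.10, beside -0.01 for all genes. By class, 13 cytosolic members were higher and 10 lower (median 0.10), 6 ER members were higher and 6 lower (median -0.06), and 6 mitochondrial members were higher and 3 lower (median 0.54). Less the median of genes of like length, the mitochondrial median was 0.11 and the ER median 0.012. With transcripts summed per gene the cytosolic median was -0.074 and the ER median -0.16, and with the fibroblast covariate the cytosolic median was -0.0053. Besides the genes already given, Dnajb2 fell by 1.01 ± 0.10 (adjusted p = 5.43e-08), Canx by 0.54 ± 0.07 (adjusted p = 1.99e-06) and Dnajc7 by 0.78 ± 0.07 (adjusted p = 3.1e-08). Dnajb5 fell by 0.57 ± 0.18 (adjusted p = 0.0111), a call lost without the library of mouse 3 at 30000 fibers (adjusted p = 0.0732). Dnajc27 fell by 0.62 ± 0.23 (adjusted p = 0.0272), a call lost without the library of mouse 3 or 4 at 12000 fibers or of mouse 4 at 30000 fibers (adjusted p 0.0587 to 0.136).

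Summed over members, the ratio of ER to cytosolic transcripts was lower with fibers than without. Cytosolic members summed to 5711, 6021, 5764 and 5480 CPM in controls, 6397, 6203, 6501 and 6146 CPM at 12000 fibers, and 7070, 7538, 7555 and 7099 CPM at 30000 fibers. The 3 groups did not overlap on this scale. Without Hspa8, left out after seeing the data, the sums were 5332 ± 188 CPM in controls, 5883 ± 154 CPM at 12000 fibers and 5985 ± 232 CPM at 30000 fibers (SD, n = 4), and the 2 fiber groups overlapped. ER members summed to 5819, 6010, 5804 and 5751 CPM in controls, 5580, 5532, 5578 and 5320 CPM at 12000 fibers, and 4985, 5581, 4971 and 4797 CPM at 30000 fibers. Both fiber groups lay under the controls, and the library of mouse 2 at 30000 fibers lay just above the highest library at 12000 fibers. The ratio of ER to cytosolic sums was 1.02 ± 0.0224 in controls, 0.872 ± 0.0145 at 12000 fibers and 0.695 ± 0.0361 at 30000 fibers (SD, n = 4), with no overlap among the groups. Without Hspa8 it was 1.097 ± 0.0202, 0.936 ± 0.0168 and 0.849 ± 0.0430, again with no overlap. Mitochondrial members summed to 764 ± 39.96, 949 ± 42.5 and 1126 ± 68.2 CPM in the same order of groups. Without Hspe1 they summed to 745 ± 41.5, 926 ± 40.4 and 858 ± 46.4 CPM, so that 30000 fibers was no longer above 12000 fibers. These sums are descriptions and carry no test.

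**Figure D5:**
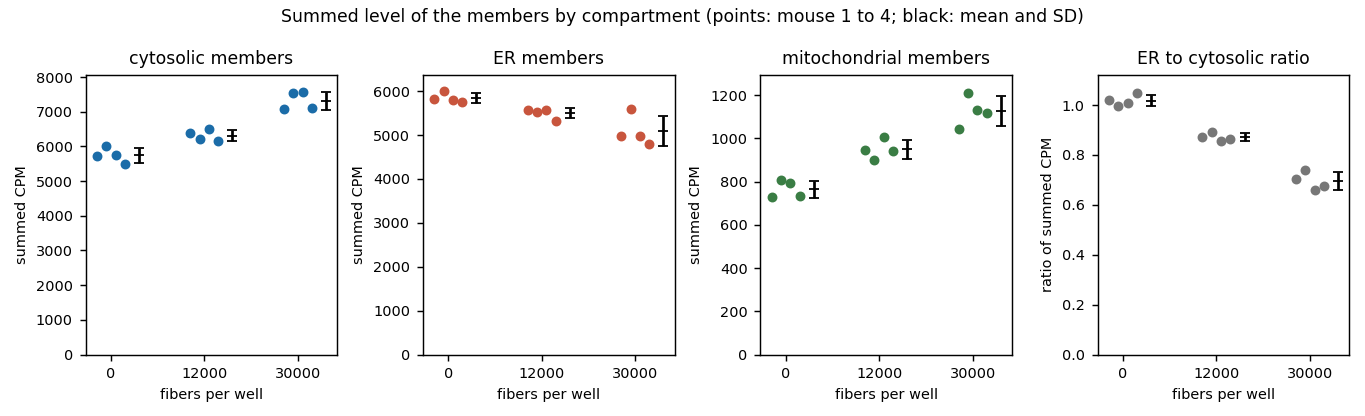
Summed CPM of cytosolic, ER and mitochondrial members and the ratio of the ER to the cytosolic sum, by number of fibers per well, with points for mouse 1 to 4 and black bars for the mean and SD (n = 4). The ratio is 1.02 in controls, 0.872 at 12000 fibers and 0.695 at 30000 fibers, and the rise of the cytosolic and mitochondrial sums from 12000 to 30000 fibers rests on Hspa8 and Hspe1.

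Other genes of the folding pathways were read from 5 further lists, beside 38% of all genes called at 12000 fibers and 65.6% at 30000 fibers. Of 24 co-chaperones of the cytosol, 9 rose at 12000 fibers and the other 15 did not pass the test, and at 30000 fibers 11 rose and 7 fell. The shares called, 37.5% and 75%, stand beside those of all genes. Cryab, a small heat shock protein outside the symbol rule, went from 28.6 ± 6.94 CPM in controls to 66.1 ± 5.902 CPM at 12000 fibers and 115 ± 4.51 CPM at 30000 fibers (SD, n = 4), rises of 1.21 ± 0.13 (adjusted p = 4.2e-06) and 2.01 ± 0.13 (adjusted p = 4.09e-09). The summed fibroblast markers were higher in the same libraries, and their part in these rises was not tested. Serpinh1, a collagen chaperone of the ER placed on that list, rose by 0.65 ± 0.10 at 12000 fibers (adjusted p = 8.65e-05), and St13, an HSP70-binding protein, by 0.35 ± 0.06 (adjusted p = 9.28e-05). The part of the fibroblast markers in the rise of Serpinh1 was not tested either. At 30000 fibers Hsbp1, which binds Hsf1, rose by 1.48 ± 0.06 (adjusted p = 5.42e-14) and Sugt1, an HSP90 partner, by 0.96 ± 0.08 (adjusted p = 3.03e-09). Hsbp1 and Cryab, of 1208 and 1117 nt, are in the shortest length class. The median of all genes in that class was 0.89 at 30000 fibers. Ahsa1, an activator of HSP90, was lower at 30000 than at 12000 fibers by 1.13 ± 0.11 (adjusted p = 8.34e-08).

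Of 15 genes of the prefoldin complex and of tubulin folding, which work beside TRiC, 5 rose at 12000 fibers and 11 at 30000 fibers, and the rest did not pass the test. The shares called were 33.3% and 73.3%. The tubulin cofactor Tbcb rose by 0.35 ± 0.08 (adjusted p = 0.0026) and 1.24 ± 0.09 (adjusted p = 2.72e-10) at the 2 fiber numbers. At 12000 fibers the prefoldin-like Uri1 rose by 0.21 ± 0.06 (adjusted p = 0.00766) and Tbcd by 0.21 ± 0.07 (adjusted p = 0.026), the latter call lost without the control of mouse 1 or 3 or the library of mouse 1, 2 or 3 at 12000 fibers (adjusted p 0.0572 to 0.0896). At 30000 fibers Tbca, of 559 nt, rose by 2.06 ± 0.07 (adjusted p = 4.74e-15) and Pfdn4, of 935 nt, by 1.53 ± 0.12 (adjusted p = 1.26e-09). Both are in the short range in which the median of all genes was also higher.

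Of 26 other ER folding genes tested, 4 rose and 5 fell at 12000 fibers, and 13 rose and 8 fell at 30000 fibers. Ero1l, the oxidase that recharges disulfide isomerases, went from 482 ± 123 CPM in controls to 227 ± 34.96 CPM at 12000 fibers and 171 ± 15.8 CPM at 30000 fibers (SD, n = 4), and fell by 1.08 ± 0.18 at 12000 fibers (adjusted p = 0.000815). Fkbp10, a prolyl isomerase for collagen, rose by 0.96 ± 0.14 at 12000 fibers (adjusted p = 8.51e-05) and Selenof by 0.33 ± 0.06 (adjusted p = 0.000226). The summed fibroblast markers were higher in the same libraries, and their part in the rise of Fkbp10 was not tested. At 30000 fibers Selenof, Prdx4 and Manf rose by 1.44 ± 0.06 (adjusted p = 9.49e-14), 1.64 ± 0.11 (adjusted p = 2.44e-10) and 0.80 ± 0.08 (adjusted p = 1.82e-08).

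Of 19 sensors, transcription factors and degradation genes of the unfolded protein response, 5 rose and 5 fell at 12000 fibers, and 7 rose and 6 fell at 30000 fibers. Xbp1, a transcription factor of that response, read 117, 96.02, 92.1 and 113 CPM in controls and 80.2, 75.1, 80.6 and 77.2 CPM at 12000 fibers and fell by 0.42 ± 0.07 (adjusted p = 0.000165). The sensor kinase Eif2ak3 and the transcription factor Atf4 rose there, by 0.38 ± 0.06 (adjusted p = 7.29e-05) and 0.33 ± 0.07 (adjusted p = 0.000723). At 30000 fibers the 7 that rose included the ER-degradation genes Selenos (0.67 ± 0.09, adjusted p = 1.27e-06) and Derl1 (0.56 ± 0.08, adjusted p = 2.38e-06) and the transcription factor Ddit3 (0.91 ± 0.18, adjusted p = 0.000469). Ddit3, of 890 nt, is in the shortest length class, where the median of all genes was 0.89. Others of ER degradation, Os9, Edem3 and Sel1l, fell by 0.79 ± 0.06 (adjusted p = 4.65e-10), 0.70 ± 0.08 (adjusted p = 1.18e-07) and 0.50 ± 0.06 (adjusted p = 3.52e-07). Of 14 genes of mitochondrial import and proteolysis, 3 rose at 12000 fibers, Htra2 by 0.44 ± 0.10 (adjusted p = 0.00217), Grpel2 by 0.31 ± 0.09 (adjusted p = 0.00785) and Clpp by 0.37 ± 0.11 (adjusted p = 0.0124), or adjusted p = 0.0516 without the control of mouse 4. At 30000 fibers 5 of them rose and 4 fell. Clpp, of 983 nt, stood at 1.34 ± 0.12 (adjusted p = 5.81e-09). Pam16, also among the 5, was represented by a transcript of 346 nt of the annotated type retained intron. It was near the floor in controls (0.514 ± 0.389 CPM) and at 12000 fibers (0.618 ± 0.135 CPM). At 30000 fibers it read 13.2 ± 1.99 CPM (SD, n = 4). Its log2 fold change of 4.69 rests on the group in which it is high, so no p-value is given. The protease subunit Spg7 stood at -0.97 ± 0.10 (adjusted p = 8.86e-08). Hscb, a J protein for iron-sulfur clusters with a transcript of 804 nt, was higher at 30000 than at 12000 fibers by 1.20 ± 0.15 (adjusted p = 1.46e-06). Pam16, Clpp and Hscb are in the shortest length class too.

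The remaining members include J proteins of vesicles, the nucleus and the ribosome. Dnajc5, the cysteine string protein of vesicles, read 179, 208, 178 and 185 CPM in controls and 245, 252, 235 and 229 CPM at 12000 fibers and rose by 0.36 ± 0.06 (adjusted p = 0.000149), without overlap of the groups. Dnajc13, an endosomal J protein, rose by 0.16 ± 0.06 at 12000 fibers (adjusted p = 0.0426) and 0.28 ± 0.06 at 30000 fibers (adjusted p = 0.000658). The first of these calls was lost without the control of mouse 1 or 2 or any 1 library of 12000 fibers (adjusted p 0.055 to 0.158), and with the fibroblast covariate both values changed sign (-0.029, adjusted p = 0.924, and -0.047, adjusted p = 0.849). Hspa14, an HSP70 at the ribosome, rose by 0.53 ± 0.10 at 30000 fibers (adjusted p = 9.57e-05), while Dnajc22 fell by 1.49 ± 0.38 (adjusted p = 0.00171). At 30000 fibers Dnajc9, a J protein that handles histones, rose by 0.44 ± 0.12 (adjusted p = 0.00285), but read -0.077 (adjusted p = 0.613) with summed transcripts. Dnajc12 rose by 0.98 ± 0.20 (adjusted p = 0.000216). Dnaja4, a cytosolic J protein, fell by 0.53 ± 0.11 (adjusted p = 0.000337), while its relative Dnaja2 read 0.05 ± 0.05 (adjusted p = 0.405). Of the membrane J proteins of the ER, Dnajb12 rose by 0.49 ± 0.08 (adjusted p = 4.2e-05), and Dnajc14 and Dnajc16 fell by 0.22 ± 0.07 (adjusted p = 0.00853) and 0.47 ± 0.10 (adjusted p = 0.000291). In mitochondria Dnajc30 rose by 0.77 ± 0.14 (adjusted p = 9.97e-05), and Dnajc11 fell by 0.40 ± 0.11 (adjusted p = 0.00248). Dnajb14, Dnajc18, Dnajc21, Hspa13 and Hspbap1 passed the test in none of the 3 comparisons, although with summed transcripts Dnajc21 (0.21, adjusted p = 0.0197) and Hspa13 (-0.27, adjusted p = 0.0107) passed at 30000 fibers.

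In all, 20 members had every library at 12000 fibers above every control and 12 had every library below, against 17.6% and 18.7% of all genes. At 30000 fibers the counts were 30 and 16 members, against 28.7% and 29.4% of all genes. Of the 3 members under the filter, Dnajb3 lay between 0 and 1.96 CPM, Dnajc6 between 0 and 2.43 CPM and Pdia2 between 0 and 1.39 CPM in the 12 libraries.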

How the data were processed

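RNA of the EpCAM-bound fraction was counted per transcript in 12 libraries (3 groups of 4). The values are the raw counts that the authors deposited, and per the submitters' processing notes the reads passed through bcl2fastq, FastQC, cutadapt 1.12 and HISAT2 2.1.0 on mm10. A counting program, its annotation, a strand setting or a use of molecular barcodes was not given in the sources used here. Columns of the fibroblast fraction were not used, because the identifiers beside them could be tied only to the epithelial columns.

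Each gene was taken by its transcript with the highest mean, genes with low counts were removed with filterByExpr, and edgeR 4.0.16 (R 4.3.3) fitted all 3 groups by its robust quasi-likelihood test with TMM scaling and 9 residual degrees of freedom. Genes were called at a Benjamini-Hochberg adjusted p under 0.05 over all genes tested. Errors of levels are SD (n = 4) and those of log2 fold changes are SE. The code was tested on simulated data. Alternatives used DESeq2 1.42.0, upper-quartile scaling, no filter, fewer groups, other transcripts or their sum, a fibroblast covariate, a length adjustment, left-out libraries and the mouse as a block. The shared mouse numbers pair the libraries by the labels, and same-mouse deviations correlated between -0.0297 and 0.184.

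The members and gene lists were chosen with earlier results of these data known. Named were a core of 41 genes (40 with counts), the 5 largest rises and 5 largest falls among called members in each comparison, and up to 3 called genes of each further list. Members outside these, and Selenos, Derl1 and Ddit3 of the unfolded protein response list, were named after their values were seen. Positions are on GRCm38, the build of mm10. Library totals on representative transcripts ran from 2799765 to 10583357.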

Additional observations from a re-analysis of the deposited data

Results flagged for a closer look

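In 10 of 162 groups of 4 libraries, 1 library lay far from the other 3 by Dixon's criterion for the gap over the range, which chance gives in about 5% of groups. The check did not take in every member, so the 10 are not a full list. Dnajc11, for instance, is not among them, with 59.5 CPM in the control of mouse 2 against 47.05 to 48.2. At 30000 fibers the library of mouse 2 was high for Canx (484.3 CPM against 405.9 to 416.5), Cct6a (197.9 CPM against 174.3 to 177.1) and Pdia4 (232.5 CPM against 180.5 to 188.4), and that of mouse 1 was low for Tcp1 (250 CPM against 294.3 to 300.6). At 12000 fibers mouse 4 was low for Hsf1 (35.64 CPM against 45.1 to 46.3), mouse 1 high for Hspb6 (12.46 CPM against 10.74 to 10.92), and mouse 2 high for Hspb8 (77.8 CPM against 66.18 to 67.35) and low for Hspe1 (19.72 CPM against 24.39 to 25.24). Among controls, mouse 1 was high for Hspa1a (27.43 CPM against 15.57 to 17.59) and mouse 3 for Hspa12b (4.3 CPM against 2.084 to 2.238).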

How the results depend on the processing

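With the fibroblast level as a covariate, 0 members were called higher and 4 lower at 12000 fibers (class medians 0.10 cytosolic, 0.14 mitochondrial), and 11 and 7 at 30000 fibers (cytosolic 0.052), with a cytosolic median of -0.0053 between the fiber numbers. Dnajb4 (-0.22), Hspa1a (0.15) and Hspb8 (-0.13) then changed sign at 30000 fibers against control, as did Dnajc13 at both fiber numbers (-0.029 and -0.047). With transcripts summed per gene, class medians at 30000 fibers were 0.071 cytosolic and -0.16 ER against control, and -0.074 cytosolic, -0.16 ER and 0.45 mitochondrial against 12000 fibers. Cct7 (-0.22), Hsp90ab1 (-0.21), Dnajb6 (0.27), Dnajc21 (0.21), Dnajc8 (-0.38), Dnajc9 (-0.077) and Hspa13 (-0.27) changed sign against control, and Dnajb6 (0.31), Dnajc21 (0.23), Xbp1 (-0.12), Dnajc8 (-0.25), Cct3 (-0.088), Cct4 (-0.20) and Hsph1 (-0.25) against 12000 fibers. With the transcript highest at 30000 fibers, the cytosolic median was 0.21, Dnajb6 turned to 0.79 and 0.93 against control and against 12000 fibers, and Dnajc2 to 0.21 and 0.0031. Less the median of genes of like length, medians at 30000 fibers were 0.16 cytosolic, 0.069 ER and 0.38 mitochondrial against control, and 0.012 ER and 0.11 mitochondrial against 12000 fibers. The cause of these shifts was not tested.

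Leaving out 1 library, 14 to 22 members were higher and 6 to 10 lower at 12000 fibers (6 without the control of mouse 2), 32 to 33 and 17 to 19 at 30000 fibers, and 26 to 29 and 18 to 21 between them. Medians ran from 0.15 to 0.20 (cytosolic), -0.06 to -0.01 (ER) and 0.022 to 0.20 (mitochondrial), then 0.10 to 0.16, -0.11 to -0.00 and 0.51 to 0.66, then 0.07 to 0.15, -0.08 to -0.03 and 0.49 to 0.57. With the mouse as a replicate block, 24 members were higher and 9 lower at 12000 fibers, 34 and 19 at 30000 fibers, and 30 and 21 between them. Besides the calls given above, the block added Dnajb11 between the fiber numbers (-0.18, adjusted p = 0.0465 by edgeR). DESeq2 called 22 and 10, 34 and 18, and 29 and 19.

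Depth was lowest at 30000 fibers, where transcript length and end position also moved with the counts. The control range of summed fibroblast markers overlapped neither that of 12000 fibers nor that of 30000 fibers. Without Fn1, the ranges of 12000 and 30000 fibers did not overlap either. The covariate fit therefore separates fiber number from fibroblast level poorly.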
